A study of Homo sapiens with 8 samples.

Results

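Expression of the mitochondrial ribosomal protein genes was examined in KCL-22, an established line of chronic myeloid leukaemia cells driven by the BCR-ABL fusion kinase. Cells selected with BCR-ABL inhibitors were set beside a vehicle-treated population. The genes were taken by name: every entry of the deposited FPKM table called MRPL or MRPS followed by a number and, at most, a letter A, B or C. Of 31402 entries, 76 were chosen this way, no symbol occurred more than 1 time, and 3 related symbols were left out (MRPL23-AS1, an antisense RNA, and the pseudogenes MRPL42P5 and MRPL45P2). All 76 passed the filter used for the tests, a mean of at least 1 FPKM over the libraries.

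All 8 libraries came from KCL-22 cells carrying the ClonTracer barcode library, which tags each founder cell with a heritable DNA sequence. The vehicle population received 0.1% DMSO for 7 days. The resistant populations were treated for longer, so selection and time in culture cannot be told apart in comparisons with vehicle. Catalytic inhibitors, which bind the ATP site of the kinase, selected the imatinib population (2.5 µM, 27 days) and the nilotinib population (0.3 µM, 27 days), and the allosteric inhibitor GNF-2, which binds the myristate pocket, selected the GNF-2 population (2.5 µM, 21 days). Clone 1, Clone 2 and Clone 4 were each grown from a sorted cell of GNF-2-resistant cultures and had not met a catalytic inhibitor. Clone 3 was grown in the same way from imatinib-resistant cells and had not met an allosteric inhibitor. The imatinib and nilotinib populations and Clone 3, resistant to imatinib and nilotinib, form the catalytic-resistant group (n = 3). The GNF-2 population, Clone 1 and Clone 2 form the GNF-2-resistant group (n = 3), and Clone 4, labelled resistant to all 3 inhibitors, stands alone, as does the vehicle population. In lists of values below, "after imatinib", "after nilotinib" and "after GNF-2" stand for the 3 resistant populations. The GNF-2-resistant group sets a population beside Clone 1 and Clone 2, which came from it. Likewise, Clone 3 is grouped with the imatinib population it came from. The libraries of a group are thus not all independent and mix clones with populations. P-values and SDs measure only the spread between these libraries.

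The mitochondrial ribosome translates the few messenger RNAs encoded by the mitochondrial genome, all for subunits of the respiratory chain and ATP synthase. Its RNAs are made inside the organelle, whereas its proteins are encoded in the nucleus, made in the cytosol and imported. Some of these proteins descend from bacterial ribosomal proteins and others have no bacterial counterpart. Despite its name, MRPS18A sits in the large subunit, as does MRPS30, and MRPS36 was later assigned to a metabolic enzyme complex. By these assignments the 76 genes held 49 of the large subunit and 26 of the small subunit, beside MRPS36, and 45 had a bacterial counterpart while 27 were specific to mitochondria.

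FPKM values summed to between 493644 and 579873 per library. A rough estimate from the smallest steps of FPKM in 685 intronless genes put the depth at 19100000 to 39400000 fragments, so that the least abundant member, MRPL22, rested on about 438 to 1191 fragments. Of 7 blood cell markers in the table, PTPRC (16.5 to 88.0 FPKM) and GATA2 (145 to 287 FPKM) were above 1 in all 8 libraries, while SPI1 (0 to 29.9), CD34 (0.38 to 12.2), CD33 (0.16 to 3.35) and ITGAM (0.09 to 3.87) were above 1 in some and KIT was below 1 in all 8. The 7 summed to 200.05 to 343.9 FPKM, and the median over the 5 that were tested, as log2(FPKM + 1) minus each gene's mean, ran from 0.68 in the GNF-2 population to -0.72 in Clone 3; their part in the results was not tested. The 10 markers of liver, epithelial, connective, vascular, pancreatic and neural cells were below 1 in every library. In these bulk samples, fewer cells of a kind and less RNA per cell cannot be told apart.

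FPKM is a level per transcript length, so it can be set side by side between genes. Mean levels over the 8 libraries ran from 8.66 to 149.96 FPKM, with a median of 32.8. The highest belonged to MRPS21, a small-subunit protein with a bacterial counterpart, at 132 to 171 FPKM, followed by the mitochondrion-specific MRPL51 of the large subunit at 99.7 to 125 FPKM. Next came MRPL33 (mean 103 FPKM), MRPS24 (98.4), MRPL12 (73.0) and MRPL14 (71.9). These ranges overlapped between neighbours in the order, except that no library of MRPS21 fell within the range of MRPL51. The lowest levels belonged to MRPL22 (mean 8.66 FPKM), MRPS25 (9.19), MRPS11 (11.3), MRPL46 (11.4), MRPL30 (13.0) and MRPS31 (13.3). The 3 paralogs related to the bacterial protein S18 differed in level: MRPS18B, of the small subunit, stood at 49.6 to 81.9 FPKM, above every value of MRPS18A (23.3 to 31.1) and MRPS18C (23.2 to 29.7), and the latter pair overlapped.

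Most members varied little. Among the 75 members above 0 in every library, the ratio of the highest to the lowest library had a median of 1.57, and it reached 2 or more in 7 of 75 (9.33%), against 51.8% of all tested genes above 0 throughout and 41.3% of those within the same range of mean level. The most even were MRPL35 (ratio 1.18), MRPL19 (1.24), MRPL51 (1.25) and MRPS2 (1.28). The widest were MRPL39 (2.94), MRPS12 (2.72), MRPL1 (2.57), MRPL12 (2.56), MRPS25 (2.09) and MRPS17 (2.09). The SD of log2(FPKM + 1) had a median of 0.212 in these members and 0.312 in all tested genes above 0 throughout, so the typical member moved less between libraries than the typical gene.

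**Figure D1:**
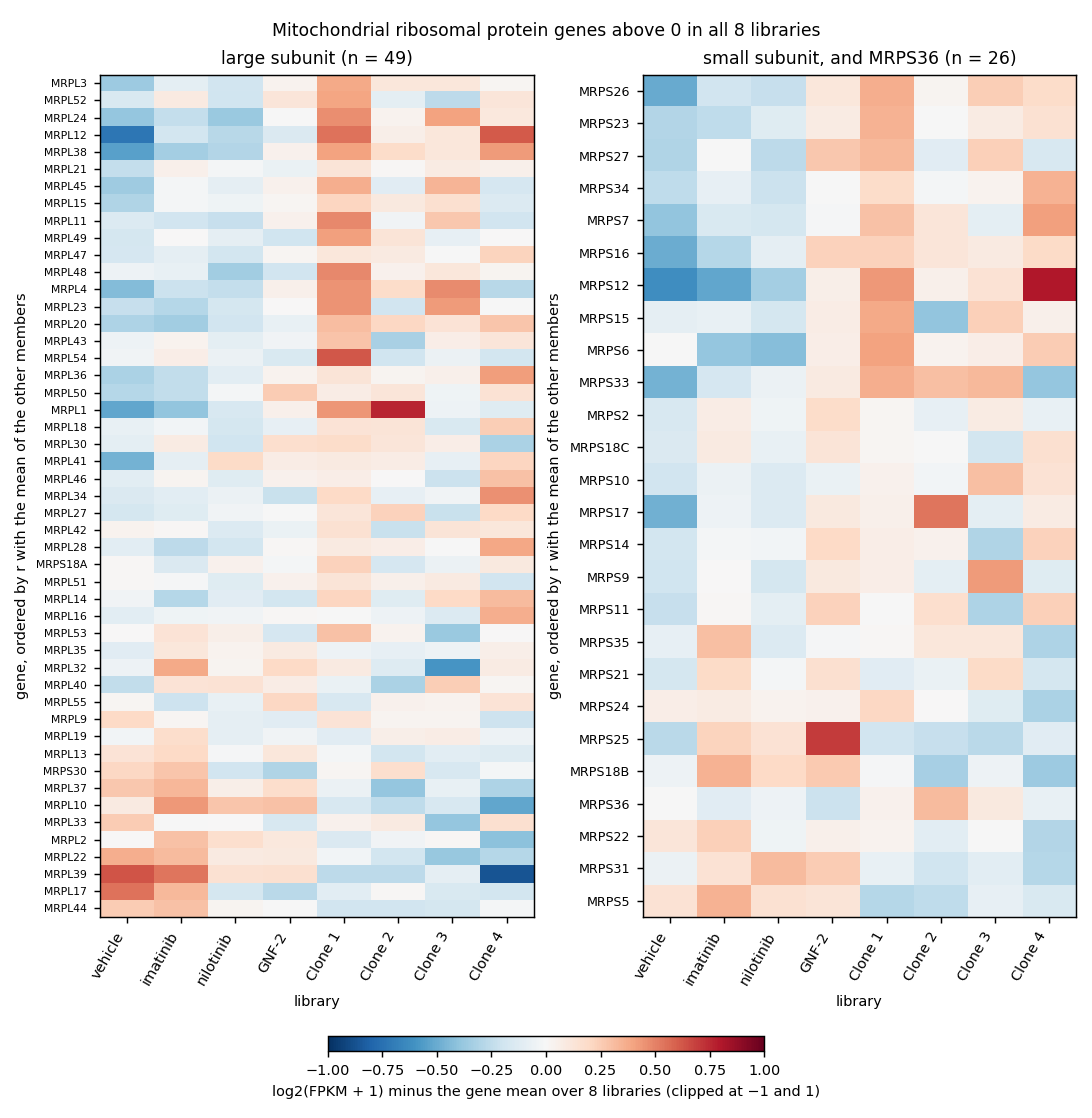
Level of the 75 members above 0 in all 8 libraries, as log2(FPKM + 1) minus the gene's mean over the libraries (colour, clipped at -1 and 1), with genes in rows ordered by their correlation with the mean of the other members and libraries in columns. Most genes at the top are low in the vehicle population and high in Clone 1, and the genes at the bottom, such as MRPL39, MRPL17 and MRPL44, have the opposite pattern.

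MRPS28, a small-subunit protein related to bacterial S1, was the only member listed at exactly 0 anywhere (chromosome 8, 80831094 to 80942506, GRCh37). It was listed at 0 in vehicle, after imatinib, after nilotinib and in Clone 3. It stood at 31.9 FPKM after GNF-2, 42.7 in Clone 1, 32.6 in Clone 2 and 35.2 in Clone 4. Every library of GNF-2 origin had a value above 31 FPKM and every other library was at 0, so the groups did not overlap. With limma on log2(FPKM + 1) and Benjamini-Hochberg adjustment over 11843 genes, MRPS28 was lower in the catalytic-resistant than in the GNF-2-resistant group (adjusted p = 0.000532) and higher in the GNF-2-resistant group than in vehicle (adjusted p = 0.00509, against a vehicle group of 1 library). The fitted log2 differences depend on the pseudocount because 1 side is listed at 0, and they are no measure of a fold.

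The entry of TPD52, a gene of vesicle traffic, begins at the same base as that of MRPS28 and ends at 81083836, so the 2 entries share 111413 bases. TPD52 stood at 120 FPKM in vehicle, 83.7 after imatinib, 88.4 after nilotinib and 102 in Clone 3. It stood at 63.3 after GNF-2, 58.5 in Clone 1, 65.5 in Clone 2 and 53.7 in Clone 4. TPD52 was thus higher in each of the 4 libraries where MRPS28 was listed at 0 than in any library where it was not, and the sum of both entries ran from 83.7 to 120 FPKM without that division. Exact zeros were not rare in the table: 401 of the tested genes (3.386%) were at 0 in at least 1 library, 102 to 201 genes per library. GPANK1, KIAA0125 and MRPS28 shared this pattern of zeros. LIPT1, whose entry lies inside that of MRPL30, was the only tested gene at 0 in exactly the other 4 libraries. How reads were divided between overlapping entries was not tested, so the 0 values of MRPS28 are listed values and not shown to be a lack of transcript.

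**Figure D2:**
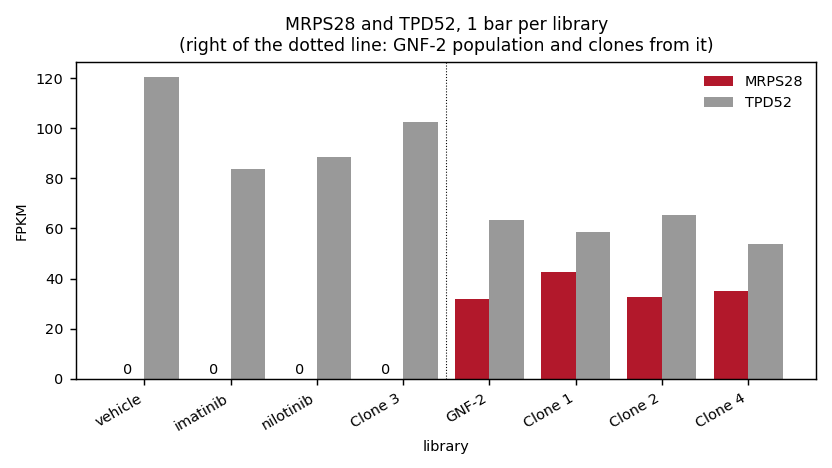
FPKM (vertical axis) of MRPS28 (red bars) and TPD52 (grey bars) in each of the 8 libraries (horizontal axis), 1 bar per gene and library. MRPS28 is listed at 0 in the 4 libraries left of the dotted line, where TPD52 is at 83.7 to 120 FPKM, and at 31.9 to 42.7 FPKM in the 4 libraries of GNF-2 origin.

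The comparison of the GNF-2-resistant group with vehicle asked which members differed after selection with the allosteric inhibitor. MRPS28 was the only member that passed, 1 of 76 (1.32%), where 11 of 11843 tested genes passed (0.0929%; 1 gene without Clone 1, 3 without Clone 2, 4 without the nilotinib population, 7 without the imatinib population and 7 without Clone 3). At an unadjusted p under 0.05 there were 14 members (18.4%, against 11.1% of genes), but 6 without Clone 1, 8 without the nilotinib population, 7 after median-ratio rescaling (each library divided by its median ratio to the genes' geometric means) and 7 with clone or population as a covariate. Under these alternatives the share of all genes at that unadjusted threshold was not counted. Differences leaned upward without passing: 61 of 76 stood higher than in vehicle and 15 lower. Their median log2 difference was 0.169 (0.1195 after median-ratio rescaling), against 0.037 over all genes as deposited. The lean was not particular to the members: 82 of 83 cytosolic ribosomal protein genes stood higher (median 0.382). Of 8 genes for mitochondrial ribosome subunits with other names, 4 stood higher and 4 lower (median 0.016). Among the members, the small subunit leaned more (24 of 26 higher, median 0.254) than the large subunit (36 of 49 higher, median 0.139), a difference for which no test was made. All 3 GNF-2-resistant libraries were above the vehicle library for 44 members (57.9%) and below it for 11 (14.5%), where the shares over all genes were 33.8% and 26.2%.

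The furthest above vehicle were MRPL1, MRPL12, MRPS12, MRPL38 and MRPS33. MRPL1, of the stalk where transfer RNA leaves (chromosome 4, 78783804 to 78873944), was 9.78 FPKM in vehicle, 10.7 after imatinib, 12.9 after nilotinib, 15.0 after GNF-2, 19.97 in Clone 1, 25.2 in Clone 2, 13.9 in Clone 3 and 13.2 in Clone 4. Its vehicle value was the lowest, and its highest were Clone 1 and Clone 2. The log2 difference of the GNF-2-resistant group from vehicle was 0.94 (SE 0.31) and did not pass (limma, adjusted p = 0.441). MRPL12, which forms the flexible stalk that recruits translation factors (chromosome 17, 79670399 to 79674556), was 42.1 FPKM in vehicle, 61.8 after imatinib, 57.7 after nilotinib and 63.3 after GNF-2, and 103, 72.9, 76.1 and 108 in Clone 1, Clone 2, Clone 3 and Clone 4. Vehicle was lowest and each clone was above each population. MRPS33, a mitochondrion-specific protein (chromosome 7, 140705960 to 140714781), was 16.3 FPKM in vehicle, 20.5 after imatinib, 22.2 after nilotinib and 24.7 after GNF-2, and 29.98, 28.8, 29.3 and 17.5 in Clone 1 to Clone 4. Clone 4 lay near vehicle and apart from the other clones.

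MRPL39, MRPL17, MRPL22, MRPL44 and MRPL37 stood furthest below vehicle. MRPL17, a large-subunit protein with a bacterial counterpart (chromosome 11, 6701615 to 6704632), was 28.0 FPKM in vehicle, 23.9 after imatinib, 16.7 after nilotinib, 15.5 after GNF-2, 17.5 in Clone 1, 19.1 in Clone 2, 16.9 in Clone 3 and 16.6 in Clone 4. Vehicle and the imatinib population were the highest, and the other 6 libraries lay between 15.5 and 19.1 FPKM. Its log2 difference was -0.66 (SE 0.26; limma, adjusted p = 0.441). MRPL44, which carries a ribonuclease III fold, was 28.7 FPKM in vehicle and 21.9 ± 1.74 (SD, n = 3) in the GNF-2-resistant group.

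Against the same vehicle library, the catalytic-resistant group gave no member that passed (0 of 76) where 4 of 11843 genes did (0.0338%; 0 to 1 gene without any of the imatinib, nilotinib or GNF-2 populations, Clone 1, Clone 2 or Clone 3). At an unadjusted p under 0.05 there was 1 member (1.32%, against 2.69% of genes), MRPL41 (log2 difference 0.475, SE 0.188; limma, adjusted p = 1). No other tool was run. Because this comparison and the preceding one share their vehicle library, their values are given side by side and nothing is read from their likeness. Here 51 members stood higher and 24 lower, with a median log2 difference of 0.089 (0.055 after median-ratio rescaling) against 0.023 over all genes, and 31 members (40.8%) lay above vehicle in all 3 libraries while 5 (6.58%) lay below, where 28.8% and 21.2% of all genes did. The small subunit had 21 of 26 higher and a median of 0.196, the large subunit 30 of 49 and 0.056. Of the cytosolic ribosomal protein genes 82 of 83 stood higher (median 0.356). The 8 mitochondrial ribosome subunit genes with other names had 4 higher and 4 lower (median -0.007). Named by size were MRPL12 (65.2 ± 9.67 FPKM against 42.1; SD, n = 3), MRPS33 (24.0 ± 4.67 against 16.3), MRPL41 (69.0 ± 8.17 against 49.1), MRPS26 (34.6 ± 6.80 against 24.9) and MRPL4 (46.9 ± 14.3 against 33.3). On the low side were MRPL17 (19.2 ± 4.14 FPKM against 28.0), MRPL39 (31.4 ± 7.18 against 41.99), MRPL33 (94.4 ± 14.1 against 122), MRPL22 (8.77 ± 2.27 against 11.2) and MRPL9 (52.1 ± 2.29 against 60.7).

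When the 2 resistant groups were set directly against each other, MRPS28 was the only member that passed, 1 of 76, with 4 of 11843 genes passing (0.0338%; 1 without the imatinib population, 10 without the GNF-2 population and 9 without Clone 3). At an unadjusted p under 0.05 there were 2 members (2.63%), where 4.87% of all genes were, and 7 members without Clone 3. The share of all genes at that threshold without Clone 3 was not counted. Over the 76, 53 stood lower and 23 higher in the catalytic-resistant group, with a median log2 difference of -0.099 against -0.012 over all genes, and -0.054 without Clone 1. The groups did not overlap for 11 members that were lower (14.5%, against 6.82% of all genes) and 1 that was higher (1.32%, against 4.08%). MRPL40, a mitochondrion-specific protein of the large subunit, was the member that was higher: 36.2 FPKM after imatinib, 36.4 after nilotinib and 39.0 in Clone 3, against 34.7 after GNF-2, 31.3 in Clone 1 and 26.2 in Clone 2 (log2 difference 0.28, SE 0.15; limma, adjusted p = 0.846). The entry of MRPL40 lies inside that of HIRA. HIRA stood at 12.8 FPKM after imatinib, 12.2 after nilotinib and 17.1 in Clone 3. It stood at 18.6 after GNF-2, 18.8 in Clone 1 and 19.1 in Clone 2. How reads were divided between MRPL40 and HIRA was not tested. On the low side, after MRPS28, were MRPL1 (12.5 ± 1.62 FPKM against 20.05 ± 5.10; SD, n = 3 each), MRPS17 (18.7 ± 0.593 against 24.0 ± 4.87), MRPS16 (24.2 ± 3.23 against 29.7 ± 1.33), MRPS7 (22.4 ± 0.676 against 27.4 ± 3.03) and MRPL50 (24.7 ± 2.13 against 29.6 ± 1.99). MRPS16, MRPS17 and MRPS7 are small-subunit proteins with bacterial counterparts. Neither group held Clone 4, which was resistant to all 3 inhibitors.

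**Figure D3:**
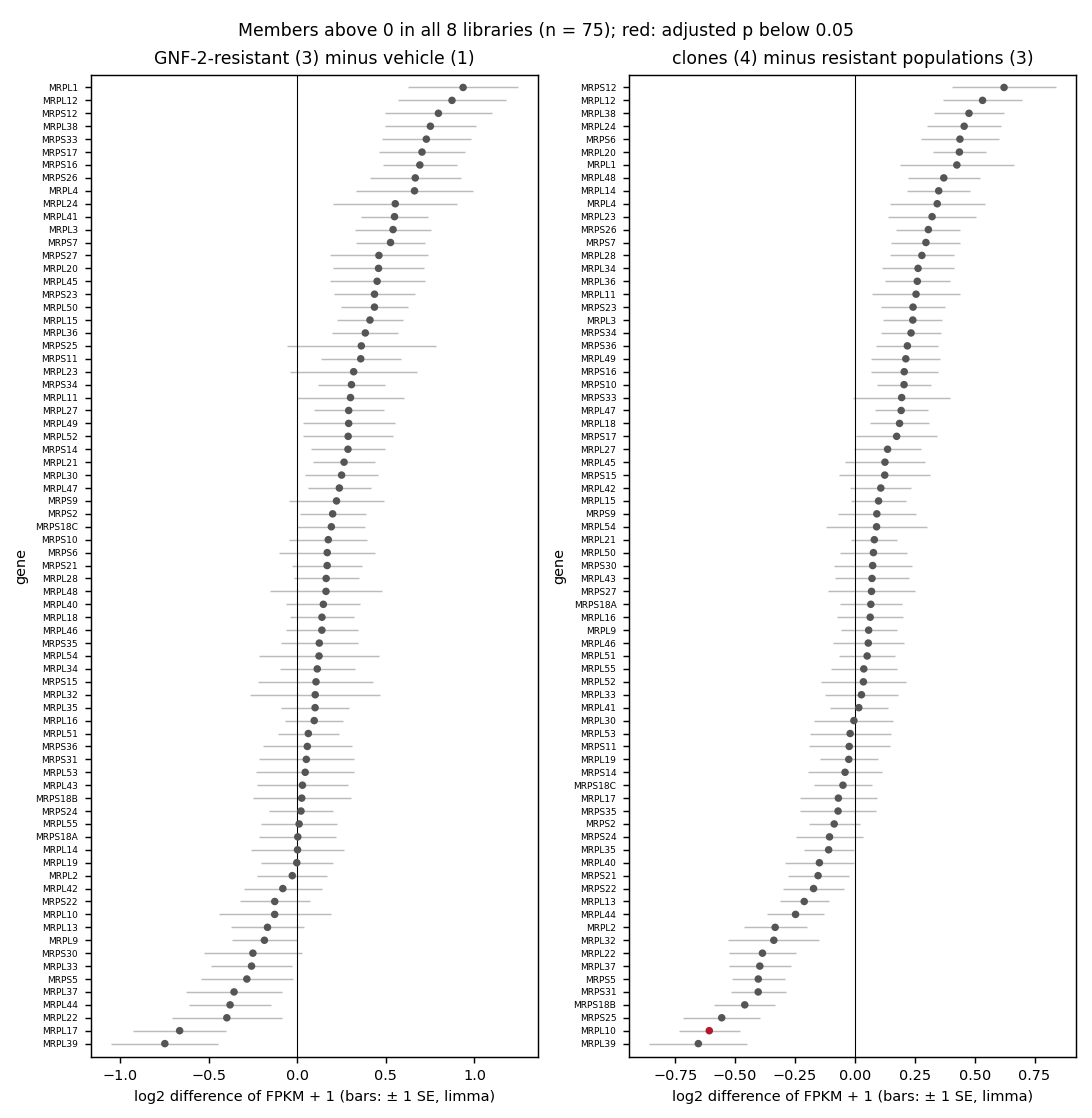
Log2 difference of FPKM + 1 (horizontal axis) for each of the 75 members above 0 in all libraries (vertical axis), from limma, with bars of 1 SE. The left panel sets the 3 GNF-2-resistant libraries against the vehicle library, where most points lie right of 0 and none passed, and the right panel sets the 4 clones against the 3 resistant populations, where only MRPL10 (red) passed.

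The 4 clones were also compared with the 3 resistant populations, whatever their inhibitor. MRPL10 was the only member that passed, lower in clones, 1 of 76 (1.32%) where 883 of 11843 genes passed (7.46%), and 17 members (22.4%) had an unadjusted p under 0.05 where 27.1% of genes did. The genes that passed were 128 without the nilotinib population, 200 without the imatinib population, 264 without Clone 1, 276 without the GNF-2 population, 556 without Clone 4 and 11 with the population of origin as a block. Members with an unadjusted p under 0.05 were 9 without the imatinib population, 7 with that block and 28 with vehicle counted among the populations. The share of all genes at that threshold was not counted under these alternatives, so these counts are not read as particular to the members. MRPL10 forms the base of the stalk to which MRPL12 is attached (chromosome 17, 45900637 to 45908907). It was 39.5 FPKM after imatinib, 35.2 after nilotinib and 35.8 after GNF-2, and 25.9, 24.1, 25.7 and 19.9 in Clone 1, Clone 2, Clone 3 and Clone 4, with 30.9 in vehicle. Every clone was below vehicle and below every resistant population. The log2 difference was -0.61 (SE 0.13; limma, adjusted p = 0.0344). The call was lost when any of the 3 resistant populations or Clone 1 was left out. It was also lost with the resistance group or the population of origin in the fit. The direction held in all 22 alternatives (log2 difference -0.65 to -0.50, limma adjusted p 0.0218 to 0.202). Because clones and populations did not overlap, leaving out a library or changing the pseudocount could not reverse it.

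The remaining members of this comparison fell on both sides: 50 stood higher in clones and 26 lower, with a median log2 difference of 0.076 where all genes had -0.079. Median-ratio rescaling, which moved the median of all genes in the GNF-2 population from 0.081 to -0.027 relative to the gene means, raised the members' median to 0.189, and without Clone 1 it was 0.050. Under it MRPL10 no longer passed, while MRPL20 and MRPL38 did, higher in clones. The groups did not overlap for 6 members that were higher (7.89%, against 8.17% of all genes) and 11 that were lower (14.5%, against 18.1%). The higher ones were MRPL12, MRPL38, MRPL24, MRPL20, MRPL48 and MRPS10. MRPL20, needed for assembly of the large subunit in bacteria, was 48.4 FPKM in vehicle, 47.1 after imatinib, 52.6 after nilotinib and 57.3 after GNF-2, and 75.1, 69.7, 66.3 and 73.2 in Clone 1 to Clone 4. The clones were all above 66 FPKM and the other libraries all below 58 (log2 difference 0.44, SE 0.11; limma, adjusted p = 0.0551). MRPL38, a mitochondrion-specific protein (chromosome 17, 73894723 to 73905899), was 14.2 FPKM in vehicle, 16.4 after imatinib, 17.02 after nilotinib and 21.8 after GNF-2, and 28.2, 24.0, 22.9 and 28.6 in the clones, so that vehicle was lowest and the clones highest.

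MRPL39, another mitochondrion-specific protein (chromosome 21, 26957967 to 26979801), was the member furthest below. It was 41.99 FPKM in vehicle, 39.2 after imatinib, 29.99 after nilotinib, 30.2 after GNF-2, 22.2 in Clone 1, 22.2 in Clone 2, 25.1 in Clone 3 and 14.3 in Clone 4. Vehicle was highest, the clones were lowest, and Clone 4 was the lowest of all (log2 difference of clones from populations -0.65, SE 0.20; limma, adjusted p = 0.0909). MRPS25 was 11.9 ± 2.79 FPKM in populations (SD, n = 3) and 7.65 ± 0.410 in clones (n = 4). The GNF-2 population alone reached 15.1 FPKM, while vehicle stood at 7.25, within the range of the clones. MRPS18B was 77.4 ± 4.24 FPKM in populations and 56.3 ± 7.26 in clones, and MRPS31 was 15.8 ± 1.02 and 11.7 ± 0.83. None of these passed (limma, adjusted p = 0.0771 for MRPS25, 0.0694 for MRPS18B and 0.0743 for MRPS31).

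**Figure D4:**
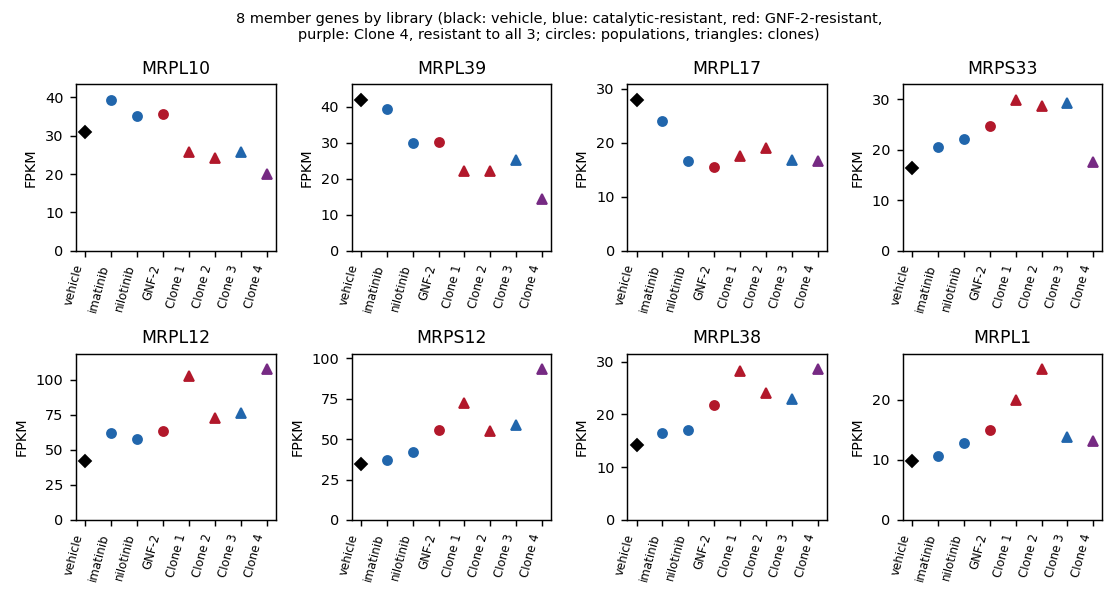
FPKM (vertical axes, from 0) of 8 members in each library (horizontal axes), with the vehicle population in black, catalytic-resistant libraries in blue, GNF-2-resistant libraries in red and Clone 4 in purple, circles for resistant populations and triangles for clones. MRPL10 and MRPL39 are lowest in the clones and MRPL12, MRPS12 and MRPL38 are lowest in vehicle.

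Members higher and lower in clones were also set side by side by sequence composition, without a test. The 75 members had a median transcript GC content of 50.7% where higher in clones and 47.2% where lower, and median transcript lengths of 978 and 1338 bases. Over all genes the medians were 51.2% against 49.1% and 1654 against 1814 bases. Across members, r with the log2 difference was 0.25 for GC and -0.25 for log2 length (n = 75 genes, which share libraries). Over all genes (n = 11330) the same values were 0.051 and -0.041. MRPL10 passed also after each library's trend on length and GC was removed. The reading of several named members is also limited by overlapping entries: MRPL12 shares its start with SLC25A10, MRPL38 shares an end with FBF1, MRPS12 lies inside the entry of SARS2, and MRPS25 shares 763 bases with NR2C2. MRPL40 lies inside the entry of HIRA, and MRPS16 shares 2176 bases with DNAJC9. MRPS7 shares 697 bases with GGA3 and 149 with MIF4GD, and MRPL20 shares 152 with LOC148413. In all, 16 members overlapped another expressed entry. The sources used here do not state whether counting used strand.

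Libraries set against each other 1 to 1 had no replicates, so members are counted where FPKM + 1 differed by at least 1.5-fold. The imatinib population and vehicle differed by that much in 0 of 76 members, where 3.87% of all genes were higher and 5.14% lower. In the nilotinib population against vehicle, MRPL41 was higher (78.4 against 49.1 FPKM) and MRPL17 lower, where 9.74% and 5.47% of genes were. In the GNF-2 population against vehicle 6 members were higher and 1 lower (16.1% and 7.63% of genes), but after median-ratio rescaling 2 were higher and 3 lower (10.8% and 11.6% of genes). The nilotinib and imatinib populations differed in 0 members (7.25% and 2.93% of genes), and the GNF-2 and nilotinib populations in MRPS28 alone (4.38% and 3.79%). Clone 4, the clone resistant to all 3 inhibitors, was higher than Clone 1 in 0 members and lower in 5 (11.8% and 8.54% of genes), higher than Clone 2 in 1 and lower in 3 (13% and 14.6%), and higher than Clone 3 in 3 and lower in 3 (13.1% and 10.3%).

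MRPS12, which helps form the decoding centre (chromosome 19, 39421347 to 39423659), was highest in Clone 4. It was 34.4 FPKM in vehicle, 36.9 after imatinib, 41.9 after nilotinib, 55.5 after GNF-2, 72.2 in Clone 1, 55.2 in Clone 2, 58.9 in Clone 3 and 93.5 in Clone 4. Clone 4 was 1.68-fold above Clone 2 and 1.58-fold above Clone 3 on the FPKM + 1 scale, and 1.29-fold above Clone 1. MRPL39 and MRPS33 were the members lowest in Clone 4 relative to Clone 2, at 0.659-fold and 0.621-fold, after MRPL1 at 0.543-fold. Clone 3 differed from its population of origin in 8 members, 4 each way (11.2% and 19.2% of genes): MRPL32 was 45.2 FPKM after imatinib and 22.6 in Clone 3, and MRPL23 was 48.1 and 79.5. Against the GNF-2 population, Clone 1 was higher in 4 members and lower in 1 (6.41% and 20.9% of genes; after median-ratio rescaling 14 and 1, against 12.1% and 15.0%), Clone 2 higher in 1 and lower in 2 (9.15% and 17.7%), and Clone 4 higher in 3 and lower in 4 (9.97% and 20.1%). MRPS25 was lower in each of these 3 clones, at 7.72, 7.48 and 8.18 FPKM against 15.1 in that population.

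As a list, the members made up 0.542% of the summed FPKM in vehicle, 0.581% after imatinib, 0.539% after nilotinib and 0.598% after GNF-2, and 0.579%, 0.594%, 0.546% and 0.627% in Clone 1, Clone 2, Clone 3 and Clone 4. The share was highest in Clone 4 and lowest in the nilotinib population and vehicle. Measured as the median over members of log2(FPKM + 1) minus each gene's mean, the level was -0.142 in vehicle, -0.016, -0.091 and 0.045 in the populations, and 0.129, 0.011, 0.008 and 0.037 in the clones. Vehicle was thus lowest and Clone 1 highest (after median-ratio rescaling the nilotinib population was lowest, at -0.165, vehicle was at -0.111 and the GNF-2 population at -0.070), while the median over all genes was -0.023 in vehicle and -0.062 in Clone 1. The vehicle library alone held the lowest value of 25 members (32.9%, against 19.8% of all genes), and Clone 1 alone held the highest value of 27 (35.5%, against 9.38%), with values tied between libraries counted for none. The genes of the cytosolic ribosome (83 tested) had levels of -0.26 in vehicle, 0.54 in Clone 1, 0.30 in Clone 3 and -0.38 in Clone 4, so Clone 4 was the lowest library for the cytosolic list but not for the mitochondrial one.

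**Figure D5:**
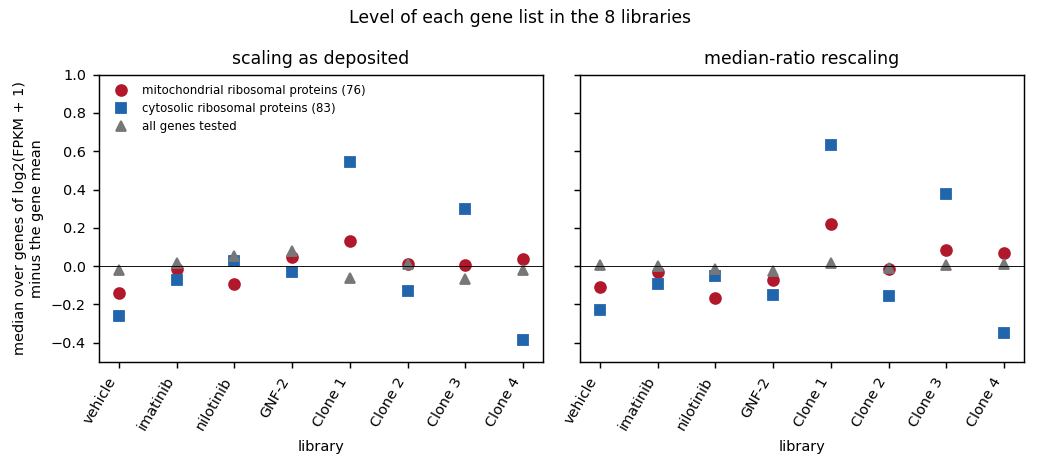
Median over genes of log2(FPKM + 1) minus the gene's mean (vertical axis) in each library (horizontal axis) for the mitochondrial ribosomal proteins (red circles), cytosolic ribosomal proteins (blue squares) and all tested genes (grey triangles), with values as deposited at left and after median-ratio rescaling at right. The red points run from -0.142 in vehicle to 0.129 in Clone 1 at left, and the blue points span a wider range, from -0.38 in Clone 4 to 0.54 in Clone 1.

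The members were alike in pattern only in part. Over the 8 libraries, the correlation of a member with the mean of the other members (standardised log2 values) had a median of 0.447 (75 genes), exceeded 0.5 for 30 members (40%) and was below -0.5 for 4 (5.33%), while tested genes outside the list had a median of -0.063 with the same mean, and of these 11367 genes 1957 (17.2%) were above 0.5 and 2046 below -0.5. All these genes share the same 8 libraries and their depth and composition. MRPL3 had the highest value (0.90), followed by MRPS26 (0.86), MRPS23 (0.82) and MRPS27 (0.81). MRPL3 was 51.9 FPKM in vehicle, 62.6 after imatinib, 58.8 after nilotinib and 68.7 after GNF-2, and 87.5, 72.9, 72.6 and 68.2 in the clones. The 4 members below -0.5 were MRPS5, MRPL39, MRPL17 and MRPL44. Pairs of members had a median r of 0.134 (2775 pairs).

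The genes that build and serve the mitochondrial ribosome were read from lists of its assembly factors, translation factors, transfer RNA synthetases, RNA processing enzymes, import machinery and regulators. None of their members passed in the 3 comparisons among resistance groups and vehicle (limma, 11843 genes). In clones against populations, where 1.68% of genes passed as higher and 5.78% as lower, 1 of 22 assembly factors passed (METTL17, lower), 1 of 18 translation factors (MTRF1, lower), 1 of 17 synthetases (HARS2, lower) and 1 of 22 transcription and RNA processing genes (HSD17B10, higher). HSD17B10, a subunit of mitochondrial ribonuclease P, was 33.7 ± 4.18 FPKM in populations (SD, n = 3) and 59.6 ± 3.99 in clones (n = 4; log2 difference 0.81, SE 0.12; limma, adjusted p = 0.0121). METTL17 was 20.7 ± 1.51 and 12.6 ± 2.42 FPKM (adjusted p = 0.0458). Of 25 import genes, TOMM5 and TOMM22 were higher. Each of these 6 genes kept its direction under all alternatives run. Clones and populations did not overlap for them, so leaving out a library could not reverse it. None passed with the population of origin as a block (limma, adjusted p = 0.124 for HSD17B10 and 0.176 to 0.249 for the other 5). Nor did any pass with the resistance group in the fit (limma, adjusted p = 0.057 for HSD17B10 and 0.0724 to 0.131 for the other 5). Leaving out the imatinib or the nilotinib population also ended each of these calls. Among regulators, PPRC1, a coactivator of nuclear genes for mitochondria, was 3.33 FPKM in vehicle, 4.40 after imatinib, 8.17 after nilotinib and 9.58 to 10.97 in the other 5 libraries. ESRRA, a nuclear receptor that acts on such genes, was 5.65 FPKM in vehicle and 7.40 to 27.5 elsewhere, and MYC was 127 in vehicle and 182 to 343 elsewhere. All 3 were lowest in vehicle and none passed against it (limma, adjusted p = 0.426 for PPRC1 and ESRRA and 0.441 for MYC, in the GNF-2-resistant group). Of the factors whose motifs are searched below, GABPA stood at 14.1 to 19.0 FPKM and YY1 at 47.7 to 67.8, whereas NRF1 was highest in vehicle, at 9.27 against 5.48 to 8.50 elsewhere. TUFM, TSFM, TFAM and LRPPRC, which serve elongation, transcription and RNA stability, stood at 62.3 to 119, 9.77 to 16.4, 13.4 to 18.001 and 55.6 to 83.8 FPKM.

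Promoter windows, from 250 bases before to 50 after the start in RefSeq (GRCh38.p14), were matched for 68 of the 76 members. The motif AAGATGGC, the core of sites of the factor YY1, was found on either strand in 20 of 68 windows (29.4%), against 5.81% of 9257 windows of tested genes and 3.03% of all 27305 windows. The motif CCGGAAG, the core of sites of ETS factors such as GABPA, was found in 28 (41.2%), against 20.9% and 10.7%. CCAAT was found in 20 (29.4%, against 37% and 35.7%), CACGTG in 7 (10.3%, against 10.6% and 7.43%), and the palindromic consensus of NRF1 in 1 (1.47%, against 2.48% and 1.36%). No motif searched contains another, and 17 windows held none. Members with the CCGGAAG match had a median r of 0.517 with the other members (28 genes) and those without it 0.416 (40 genes), and for AAGATGGC the medians were 0.485 and 0.434. A match is a description of letters and not a shown site.

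Shown next are the 250 bases before the start of 4 members that differed widely between libraries, 5′ to 3′ on the gene's strand, with motif matches on either strand in capitals.
MRPS12: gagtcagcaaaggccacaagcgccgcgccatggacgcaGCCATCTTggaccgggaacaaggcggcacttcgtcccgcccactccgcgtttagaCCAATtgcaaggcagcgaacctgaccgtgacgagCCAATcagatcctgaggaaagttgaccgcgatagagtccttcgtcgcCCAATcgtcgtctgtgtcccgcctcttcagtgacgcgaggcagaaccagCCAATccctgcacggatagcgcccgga
MRPL38: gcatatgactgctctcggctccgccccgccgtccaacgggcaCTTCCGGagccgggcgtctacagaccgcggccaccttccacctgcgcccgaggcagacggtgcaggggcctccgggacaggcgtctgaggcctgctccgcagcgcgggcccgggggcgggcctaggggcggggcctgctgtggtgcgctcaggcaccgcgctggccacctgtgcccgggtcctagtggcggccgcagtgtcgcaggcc
MRPL12: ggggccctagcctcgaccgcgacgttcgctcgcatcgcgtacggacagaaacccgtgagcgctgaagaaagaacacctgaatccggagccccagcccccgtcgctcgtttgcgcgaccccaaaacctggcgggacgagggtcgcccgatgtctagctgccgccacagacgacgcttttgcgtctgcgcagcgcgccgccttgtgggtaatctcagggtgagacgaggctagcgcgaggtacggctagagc
MRPL39: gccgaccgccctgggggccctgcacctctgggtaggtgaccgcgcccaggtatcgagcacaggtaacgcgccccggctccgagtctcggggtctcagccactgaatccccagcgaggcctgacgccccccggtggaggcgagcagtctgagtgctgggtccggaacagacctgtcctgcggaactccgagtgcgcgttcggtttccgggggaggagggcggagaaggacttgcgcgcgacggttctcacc
MRPS12 (chr19:38930694-38930943, + strand) held 4 CCAAT matches and an AAGATGGC match on the opposite strand. MRPL38 (chr17:75904885-75905134, - strand) held a CCGGAAG match on the opposite strand. Its longer window also had an AAGATGGC match, which is not in capitals here. MRPL12 (chr17:81703117-81703366, + strand) and MRPL39 (chr21:25607482-25607731, - strand) held no match. Whether matches bear on levels was not tested.

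Some members share their upstream region with a neighbour on the opposite strand. Among the 68, 16 had a tested gene starting within 1000 bases in the other direction, and MRPL46 and MRPS11 were such a pair of members, with starts 320 bases apart. MRPL46 ran from 9.65 FPKM in Clone 3 to 14.2 in Clone 4, and MRPS11 from 8.83 in Clone 3 to 13.4 in Clone 4, so the lowest and the highest library were the same for the pair. The start of MRPS12 lies 181 bases from that of SARS2, the mitochondrial seryl-tRNA synthetase. SARS2 stood at 5.18 FPKM in vehicle, 7.63 after imatinib, 5.77 after nilotinib and 7.69 after GNF-2, and 15.3, 10.5, 9.47 and 13.0 in the clones. Like MRPS12, SARS2 was lowest in vehicle and its clones were above its populations. However, MRPS12 in Clone 2 (55.2) did not exceed the GNF-2 population (55.5). The entry of MRPS12 lies inside that of SARS2, and how reads were divided between them was not tested. These 2 pairs were chosen after their values were seen. Of the other pairs, MRPL50 and ZNF189 were both highest in the GNF-2 population (31.9 and 9.25 FPKM), while some pairs differed in pattern. EME1, 45 bases from MRPL27, ran from 16.5 FPKM in vehicle to a listed 0 in Clone 4, where MRPL27 was 16.1 and 21.1. PPP1R10, 597 bases from MRPS18B, was highest in Clone 4 (24.2), the library where MRPS18B was lowest (49.6).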

How the data were processed

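Total RNA of 8 libraries was sequenced on an Illumina instrument. The authors deposited 1 table of FPKM values, and per the submitters' processing notes TopHat 1.3, Cufflinks 1.3 and GRCh37 were used. The unit was taken from the tool and the values. No read counts were used here. Entries lacking a value in some library (70 of 31402) were left out, and no column lacked a sample (0). Groups were fitted with limma 3.58.1 (R 4.3.3) on log2(FPKM + 1) with a variance trend, for 11843 genes with a mean of at least 1 FPKM, two-sided, with Benjamini-Hochberg adjustment over all genes and a threshold of 0.05. The vehicle group has 1 library and takes its spread from the other groups. The fit was also run on simulated data drawn independently for each library. The real groups hold clones beside their populations of origin, so that run does not bear on the p-values given here. Named members were those that passed, then up to 5 each way by size among members whose groups did not overlap, those listed at 0 and those at the ends of the orders of level and spread. The genes and lists were chosen with earlier results of these data known. MRPL3, MRPL46, MRPS11 and their neighbours were named after their values were seen. Positions are the table's. GENCODE release 29 gave transcript length and GC. Alternatives covered pseudocount, filter, scaling, variance model, covariates, zeros and each library left out.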

Additional observations from a re-analysis of the deposited data

Results flagged for a closer look

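MRPS28 differed between the groups resistant to catalytic inhibitors and to GNF-2, with a log2 difference of -5.19 (limma, adjusted p = 0.000532) that depends on the pseudocount because 1 group is listed at 0. Among the 4 clones, 1 library lay far from the others for 5 of the 76 members and not for the list's median (77 sets examined), where chance gives about 1 in 20. MRPL42 was 31.1 FPKM in Clone 2 and 39.5 to 40.8 in the others. MRPL44 was 23.6 in Clone 4 against 20.9 to 21.1. MRPL48 was 24.8 in Clone 1 against 17.8 to 18.9. MRPL54 was 49.7 in Clone 1 against 27.7 to 30.7. MRPS33 was 17.5 in Clone 4 against 28.8 to 29.98.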

How the results depend on the processing

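No paired analysis was possible because the labels give the groups no shared replicate numbers, but they name each clone's population of origin, which served as a block for clones against populations. Only genes above 0 in all 8 libraries: 0 members passed for catalytic-resistant against GNF-2-resistant and 0 for GNF-2-resistant against vehicle, where MRPS28 is not tested; under every other alternative run MRPS28 passed in both, and its log2 difference from vehicle was 8.47 with a pseudocount of 0.1 and 3.02 with a pseudocount of 5. Leaving out each library gave 1 to 1 member in these, 0 to 0 for catalytic-resistant against vehicle and 0 to 1 for clones against populations. For clones against populations, the members that passed were 2 with no filter, 2 with median-ratio rescaling, 0 with quantile normalization, 0 at an adjusted p of 0.01, 0 with the resistance group as a covariate, 0 with the population of origin as a block and 9 with vehicle among the populations (5 higher, 4 lower), while all genes that passed ranged from 11 to 1851 (0 to 79 for GNF-2-resistant against vehicle, 0 to 59 for catalytic-resistant against vehicle and 0 to 10 between the resistant groups). Of 38 named log2 differences, each kept its direction under all its alternatives. The groups did not overlap for these members, so leaving out a library or changing the pseudocount could not reverse them. For those alternatives the kept direction is no test. The members' median against vehicle in the GNF-2-resistant group was 0.140 to 0.230 with a library left out, the highest without Clone 2, and the median for clones against populations was 0.189 under median-ratio rescaling. Under that rescaling the list's level was -0.165 in the nilotinib population, -0.070 in the GNF-2 population, 0.218 in Clone 1 and 0.086 in Clone 3. Between single libraries, a fold of 2 left 0 members for the nilotinib population against vehicle, 1 for the GNF-2 population against vehicle, 0 for Clone 1, 0 for Clone 2 and 1 for Clone 4 against the GNF-2 population, 0 for Clone 3 against the imatinib population, and 0, 0 and 1 for Clone 4 against Clone 1, Clone 2 and Clone 3. At that fold, 1.97% to 9.56% of all genes differed each way in these pairs. Median-ratio rescaling gave 1 for the nilotinib population against vehicle (7.13% of genes higher and 7.30% lower). It gave 15 for Clone 1 against the GNF-2 population (14 higher, 1 lower, against 12.1% and 15.0% of genes). A pseudocount of 0.1 gave 12 for the GNF-2 population against vehicle (20.6% of genes higher and 8.85% lower). It gave 2 for the GNF-2 population against the nilotinib population (6.70% and 4.95%). The cause of these moves was not tested. Removal of trends on length and GC, and the alternatives for genes of other lists, were chosen after seeing the data.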
